A study of Mus musculus with 12 samples.

Results

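The 28 genes described here encode enzymes of cholesterol and fatty acid synthesis and the SREBP regulators that control them, in mouse embryonic stem cells. They were chosen by name, as the rows of the deposited count table whose symbol is on a list of 28. All 28 were found among 22416 genes, and all 28 passed the filter on low counts, as did 13239 genes in all. By role they comprised 7 genes of the mevalonate steps (Acat2, Hmgcs1, Mvk, Pmvk, Mvd, Idi1, Fdps), 11 genes of the steps through squalene to cholesterol (Fdft1, Sqle, Lss, Cyp51, Tm7sf2, Msmo1, Nsdhl, Hsd17b7, Ebp, Sc5d, Dhcr7), 4 genes of sterol sensing and transport (Srebf1, Srebf2, Insig1, Stard4) and 6 genes of fatty acid synthesis (Acly, Acaca, Fasn, Elovl6, Scd1, Scd2).

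Cells build cholesterol from acetyl-CoA by way of mevalonate, isoprenoids, squalene and lanosterol, and they build fatty acids from the same acetyl-CoA, which ATP citrate lyase (Acly) releases from citrate. Both pathways are switched on by the SREBP transcription factors, which are membrane-bound precursors held in the endoplasmic reticulum by Insig proteins when sterols are plentiful and cut free in the Golgi when sterols fall. SREBP2 (Srebf2) acts mainly on cholesterol genes and SREBP1 (Srebf1) mainly on fatty acid genes, and dividing stem cells use both products for membranes.

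RNA was sequenced from 4 groups of 3 libraries. KI LIF and KI LIF/2i were eIF2α A/A knock-in cells, whose initiation factor eIF2α cannot be phosphorylated at the mutated serine, kept for 6 days either in LIF, the cytokine leukaemia inhibitory factor, or in LIF/2i, which adds the MEK inhibitor PD0325901 and the GSK3 inhibitor CHIR99021. WT LIF and WT LIF/2i were eIF2α +/+ cells in the same media. All groups shared a serum-free base medium with serum replacement, cycloheximide treatment at lysis, and ribosomal RNA depletion of RNA from the cleared lysate. The labels do not give the number of clones or say whether replicates were separate cultures, so the spread that the p-values are set against could be technical. The series addresses how eIF2α phosphorylation affects stem cells, and the comparisons that follow are KI against WT in each medium and LIF against LIF/2i in each genotype.

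Libraries held 2307219 to 9713857 counts, with the KI LIF libraries among the shallowest at 2307219 to 4609908, so a floor of 3 counts corresponded to 0.309 to 1.3 CPM (counts scaled to library size). This floor covers counting error only. Replicates 1 and 3 of WT LIF differed by less than the sampling noise (chi-square per degree of freedom 0.858 over 12373 genes) and were counted as 1 sample by their mean, which left 2 samples in WT LIF and 3 in each other group. The 8 pluripotency markers, among them Pou5f1 and Nanog, were all detected in every group and summed to 2606 to 2656 CPM in KI LIF, 2926 to 3304 CPM in KI LIF/2i, 2094 to 2285 CPM in WT LIF and 2880 to 3104 CPM in WT LIF/2i. The 9 fibroblast markers summed to 136 to 211, 18.5 to 38.3, 48.7 to 503 and 8.53 to 11.6 CPM in the same order of groups, with WT LIF replicate 2 the higher of its group, and with Lox at 0 in KI LIF/2i and Col3a1 and Twist2 at 0 in WT LIF/2i. The 12 primitive endoderm markers summed to 353 to 385, 290 to 312, 640 to 867 and 276 to 505 CPM, and the 8 trophectoderm markers to 215 to 247, 93.5 to 221, 339 to 428 and 131 to 156 CPM, with Elf5 at 0 in both KI groups. Between media, fibroblast and primitive endoderm sums were higher in LIF than in LIF/2i in both genotypes, and pluripotency sums were lower, each without overlap. Not every pluripotency marker followed its sum in KI cells. For Pou5f1, the most abundant, KI LIF samples (1002, 1016 and 1163 CPM) overlapped the KI LIF/2i samples (1078, 1051 and 805 CPM). Sox2, Tdgf1 and Dppa5a overlapped too, whereas Nanog, Esrrb, Klf4 and Zfp42 were lower in KI LIF without overlap. Trophectoderm sums were higher in LIF without overlap in WT cells, whereas in KI cells the media overlapped. Between genotypes in LIF, KI sums lay under WT sums for primitive endoderm and trophectoderm markers, and above them for pluripotency markers. In LIF/2i the KI sums lay above the WT sums for fibroblast markers, and none of these sums overlapped. Sums follow the most abundant markers, and single markers of a list could differ. In LIF, Pou5f1 was higher in KI cells (1002, 1016 and 1163 against 792 and 714 CPM), but Nanog was lower (289, 248 and 220 against 327 and 294 CPM). Of the trophectoderm markers, Tfap2c, the most abundant, was lower in KI LIF. Krt8 overlapped, at 23.5, 19.0 and 22.4 CPM in KI LIF against 15.3 and 70.5 CPM in WT LIF. The sum of 4 Y-linked genes, Ddx3y, Eif2s3y, Uty and Kdm5d, was also lower in KI samples in both media, at 2.09 to 36.0 CPM in KI LIF and 75.0 to 157 CPM in WT LIF, and at 1.51 to 42.2 CPM in KI LIF/2i and 46.2 to 276 CPM in WT LIF/2i. These differences stand beside every comparison given here, and their part in the results was not tested. In bulk RNA, fewer cells of a type and less RNA per cell cannot be told apart.

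Promoter sequences are shown for 3 genes on which the description turns: Hmgcs1, which of the 27 members with a known coding length had the highest level per length averaged over the 4 groups, and Ebp and Fasn, the members called between media. Each run is the 250 bases before a RefSeq transcription start in GRCm38.p6, read 5′ to 3′ on the gene's strand. Capitals mark a match to TCACNCCAC, a core of the sterol regulatory element to which SREBPs bind, or to CCAAT on either strand, to which the partner factor NF-Y binds. The windows are chr13:119690101-119690350 on the plus strand for Hmgcs1, chrX:8193513-8193762 on the minus strand for Ebp and chr11:120824548-120824797 on the minus strand for Fasn.
Hmgcs1: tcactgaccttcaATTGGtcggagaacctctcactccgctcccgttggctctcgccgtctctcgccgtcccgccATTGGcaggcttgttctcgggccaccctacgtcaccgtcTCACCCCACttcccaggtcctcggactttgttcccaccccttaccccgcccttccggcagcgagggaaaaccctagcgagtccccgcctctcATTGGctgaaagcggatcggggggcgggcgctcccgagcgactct
Ebp: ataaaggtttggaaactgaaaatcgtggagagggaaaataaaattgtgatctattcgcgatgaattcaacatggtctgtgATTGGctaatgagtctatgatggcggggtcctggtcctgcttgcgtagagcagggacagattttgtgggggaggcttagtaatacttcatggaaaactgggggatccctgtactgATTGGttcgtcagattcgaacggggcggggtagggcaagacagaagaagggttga
Fasn: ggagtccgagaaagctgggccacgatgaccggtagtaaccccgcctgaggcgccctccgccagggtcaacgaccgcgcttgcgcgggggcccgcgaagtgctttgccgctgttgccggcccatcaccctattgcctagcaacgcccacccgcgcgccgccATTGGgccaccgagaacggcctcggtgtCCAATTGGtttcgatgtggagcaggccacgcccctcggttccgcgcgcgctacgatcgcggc
The Hmgcs1 run holds 1 match to TCACNCCAC, whose first base lies at -137 from the start, and 3 separate CCAAT matches. The Ebp run holds 2 CCAAT matches and the Fasn run 3, of which a pair overlaps, and neither holds TCACNCCAC.

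Promoters of 22 of the 28 members could be matched by symbol in RefSeq, at 27 start sites, and each was searched on both strands from 250 bases before the start to 50 after it. TCACNCCAC was found in 1 of the 22, Hmgcs1, which is 4.55% against 1.43% of the 10432 tested genes with a promoter. CCAAT was found in 19 of 22, 86.4% against 43.2%. GGGCGG, the GC box of Sp1 factors, was found in 18 of 22, 81.8% against 69.5%, and CACGTG, the E-box, in 4 of 22, 18.2% against 11.9%. The 3 members without CCAAT in a window were Acat2, Acaca and Elovl6. The only Acaca window, whose bases before the start are chr11:84195188-84195437, lies inside the counted transcript, which spans 84173122 to 84401651. It is therefore not the promoter of that transcript. A member counts as matched if any of its windows holds the letters. For Srebf1, the window nearest the start of the counted transcript, chr11:60220628-60220877, had 0 CCAAT, and the matches lay at other start sites. The Pmvk match lay in chr3:89454291-89454540, away from the counted transcript, which begins at 89459118. The other Pmvk window lies inside that transcript. A match is a run of letters in this window and not a measured site of binding.

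Scd1 and Scd2 lie near each other on chromosome 19 (GRCm38 44394455 to 44407709 and 44293674 to 44306864), and Srebf1, Acly, Acaca and Fasn all lie on chromosome 11. Ebp, at 8185329 to 8193512, and Nsdhl are on the X chromosome. Counts cover coding sequence, and where a gene's coding sequence recurs in other genes the assignment of reads is uncertain. In windows of 28 bases, 98.4% of those of Fdps, 79.6% of those of Idi1 and 79.6% of those of Acat2 also occurred in transcripts of other genes, mainly predicted genes for Fdps and Idi1 and Acat3 for Acat2. The same held for 77.8% of the windows of Acaca, 49.0% of Elovl6, 41.0% of Scd1 and 35.2% of Scd2, with Scd3 a main partner of both Scd genes. Levels and fold changes of these 7 genes are therefore uncertain. Insig1 and Sc5d also shared some windows with predicted genes, 14.7% and 6.55%. None of the windows of Ebp, Fasn, Acly, Hmgcs1, Mvd, Lss or Dhcr7 was shared.

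The levels of 27 members spanned a wide range when expressed per kilobase of coding sequence, which allows genes to be compared. The transcript listed for Fdft1, the squalene synthase, was not in the annotation used, so it has no length. Hmgcs1, which makes HMG-CoA at the entry to the mevalonate route, was highest with a mean over the 4 groups of 263 CPM per kb. Acly followed with 234, and in WT LIF/2i it stood above Hmgcs1, at 299 against 294 CPM per kb, within the spread of the samples (SD 38.6 and 23.6). Next came Srebf2 with 179, the multifunctional fatty acid synthase Fasn with 162 and Scd2, a stearoyl-CoA desaturase, with 150 CPM per kb. Acaca, the acetyl-CoA carboxylase, was lowest with 6.38 CPM per kb, and Fdps, the farnesyl diphosphate synthase, had 8.99. Acat2 with 15.8 and Idi1 with 15.0 CPM per kb also stood near the foot of the order, and these 4 are the genes with the largest shares of windows found in other genes. Hsd17b7, with 10.5 CPM per kb, stood under Acat2 and Idi1, and none of its windows was shared. Srebf2 stood above Srebf1, at 179 against 49.0 CPM per kb, and their ranges over samples, 474 to 765 CPM and 113 to 230 CPM before division by length, did not overlap. The fewest reads behind a value were 12, for Fdps in KI LIF replicate 3, and the most were 12715, for Fasn in KI LIF/2i replicate 2.

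**Figure D1:**
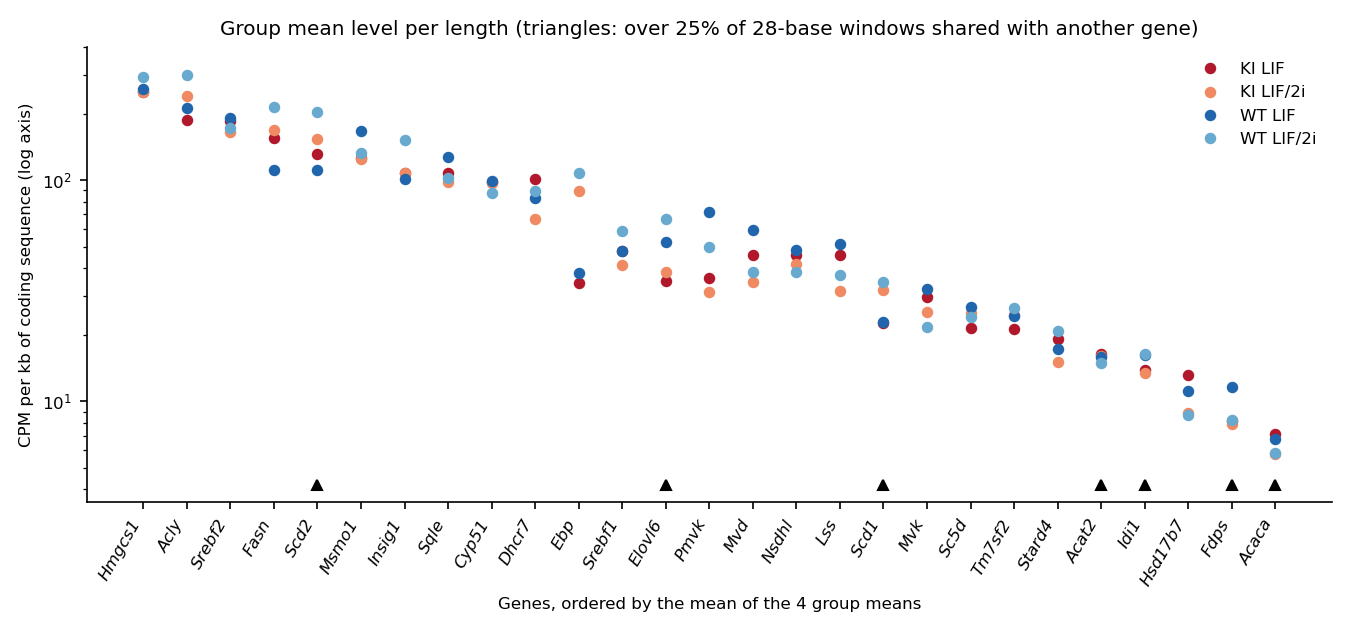
Mean level of each of 27 genes in the 4 groups, in CPM per kilobase of coding sequence on a log axis, ordered by the mean of the 4 group means, with triangles under genes of which over 25% of 28-base windows occur in another gene. The order runs from Hmgcs1 at 263 to Acaca at 6.38 CPM per kb, and Ebp shows LIF groups well under LIF/2i groups.

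Between KI and WT cells in LIF/2i, no member was called at an adjusted p under 0.05 by edgeR's quasi-likelihood test, while 2.22% of all genes were called, 0.974% higher and 1.25% lower. The count was also 0 with DESeq2 and with limma-voom. By edgeR, 2 of the 28 members, Srebf1 and Elovl6, had an unadjusted p under 0.05, as did 20.5% of all genes. Of the 28 fold changes, 21 lay under 0, with a median log2 fold change of -0.12 against 0.02 over all genes. Over all genes, 47.8% lay under 0. By role the medians were -0.14 for the mevalonate steps, -0.07 for squalene to cholesterol, -0.46 for sterol sensing and transport (0 of 4 above 0) and -0.33 for fatty acid synthesis (0 of 6 above 0). These are counts and medians of fold changes that did not pass the test.

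Srebf1, which encodes the SREBP1 precursor, had 179, 129 and 113 CPM in KI LIF/2i, against 177, 195 and 230 CPM in WT LIF/2i. KI replicate 1 alone reached the WT range. The log2 fold change was -0.51 ± 0.18 (approximate SE), with adjusted p = 0.148 by edgeR's quasi-likelihood test. Without KI LIF/2i replicate 1 the fold change was -0.74 and the adjusted p 0.0265 by the same edgeR test, and the median of all members was -0.30, whereas without WT LIF/2i replicate 3 it was -0.04. Over all alternatives the adjusted p of Srebf1 ranged from 0.0265 to 0.348 (edgeR, DESeq2 or limma-voom). Elovl6, the elongase that lengthens palmitate, had 29.7, 24.7 and 38.4 CPM in KI LIF/2i, against 37.1, 77.8 and 45.0 CPM in WT LIF/2i, so that a single KI sample reached the WT range. Its log2 fold change was -0.79 ± 0.30 (edgeR adjusted p = 0.168), on a coding sequence of which 49.0% of windows are shared with a predicted gene. Without WT LIF/2i replicate 2, the highest sample, the fold change was -0.43.

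Pmvk, the phosphomevalonate kinase, had 26.2, 17.1 and 10.7 CPM in KI LIF/2i, against 21.5, 23.5 and 41.4 CPM in WT LIF/2i, and the groups overlapped (log2 fold change -0.65 ± 0.32, edgeR adjusted p = 0.271). Insig1, the endoplasmic reticulum anchor of SREBP precursors, had 77.2, 97.6 and 75.4 CPM in KI LIF/2i, against 117, 79.3 and 157 CPM in WT LIF/2i. These groups overlapped too, with a log2 fold change of -0.49 ± 0.24 (edgeR adjusted p = 0.272). The smallest fold change in size was that of Acaca at -0.01, and the highest of the 28 was that of Mvk, the mevalonate kinase, at 0.22.

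Between KI and WT cells in LIF, again no member was called by edgeR's quasi-likelihood test, and 0.144% of all genes were, 0.0151% higher and 0.128% lower. DESeq2 and limma-voom also called 0. By edgeR, 2 of the 28 members, Pmvk and Msmo1, had an unadjusted p under 0.05, as did 10.7% of all genes. The fold changes lay under 0 for 19 of 28 members, with a median of -0.11 against 0.00 over all genes. Over all genes, 49.9% lay under 0. The mevalonate steps had a median of -0.22 with 6 of 7 under 0, and squalene to cholesterol -0.16 with 9 of 11 under 0. Sterol sensing and transport (0.04) and fatty acid synthesis (0.05) had medians near 0.

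Pmvk had 18.3, 23.0 and 21.2 CPM in KI LIF, against 41.1 and 41.5 CPM in WT LIF. The groups did not overlap, and the log2 fold change was -0.98 ± 0.35 with an edgeR adjusted p of 0.332. Msmo1, the sterol C4 methyl oxidase, had 98.7, 136 and 95.6 CPM in KI LIF, against 141 and 152 CPM in WT LIF, likewise without overlap (log2 fold change -0.40 ± 0.16, edgeR adjusted p = 0.381). Fdps had 10.0, 10.8 and 5.08 CPM in KI LIF, against 12.01 and 12.58 CPM in WT LIF, without overlap but on shared sequence, and its log2 fold change was -0.48 ± 0.35 (edgeR adjusted p = 0.684).

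Elovl6 had 26.0, 26.1 and 31.7 CPM in KI LIF, against 29.1 and 54.7 CPM in WT LIF, with overlap (log2 fold change -0.59 ± 0.34, edgeR adjusted p = 0.576). Without WT LIF replicate 2 the fold change was -0.08. Fasn ran the other way, with 793, 1404 and 1282 CPM in KI LIF, against 742 and 935 CPM in WT LIF. KI replicate 1 lay between the WT samples, and the log2 fold change was 0.47 ± 0.25 (edgeR adjusted p = 0.537).

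**Figure D2:**
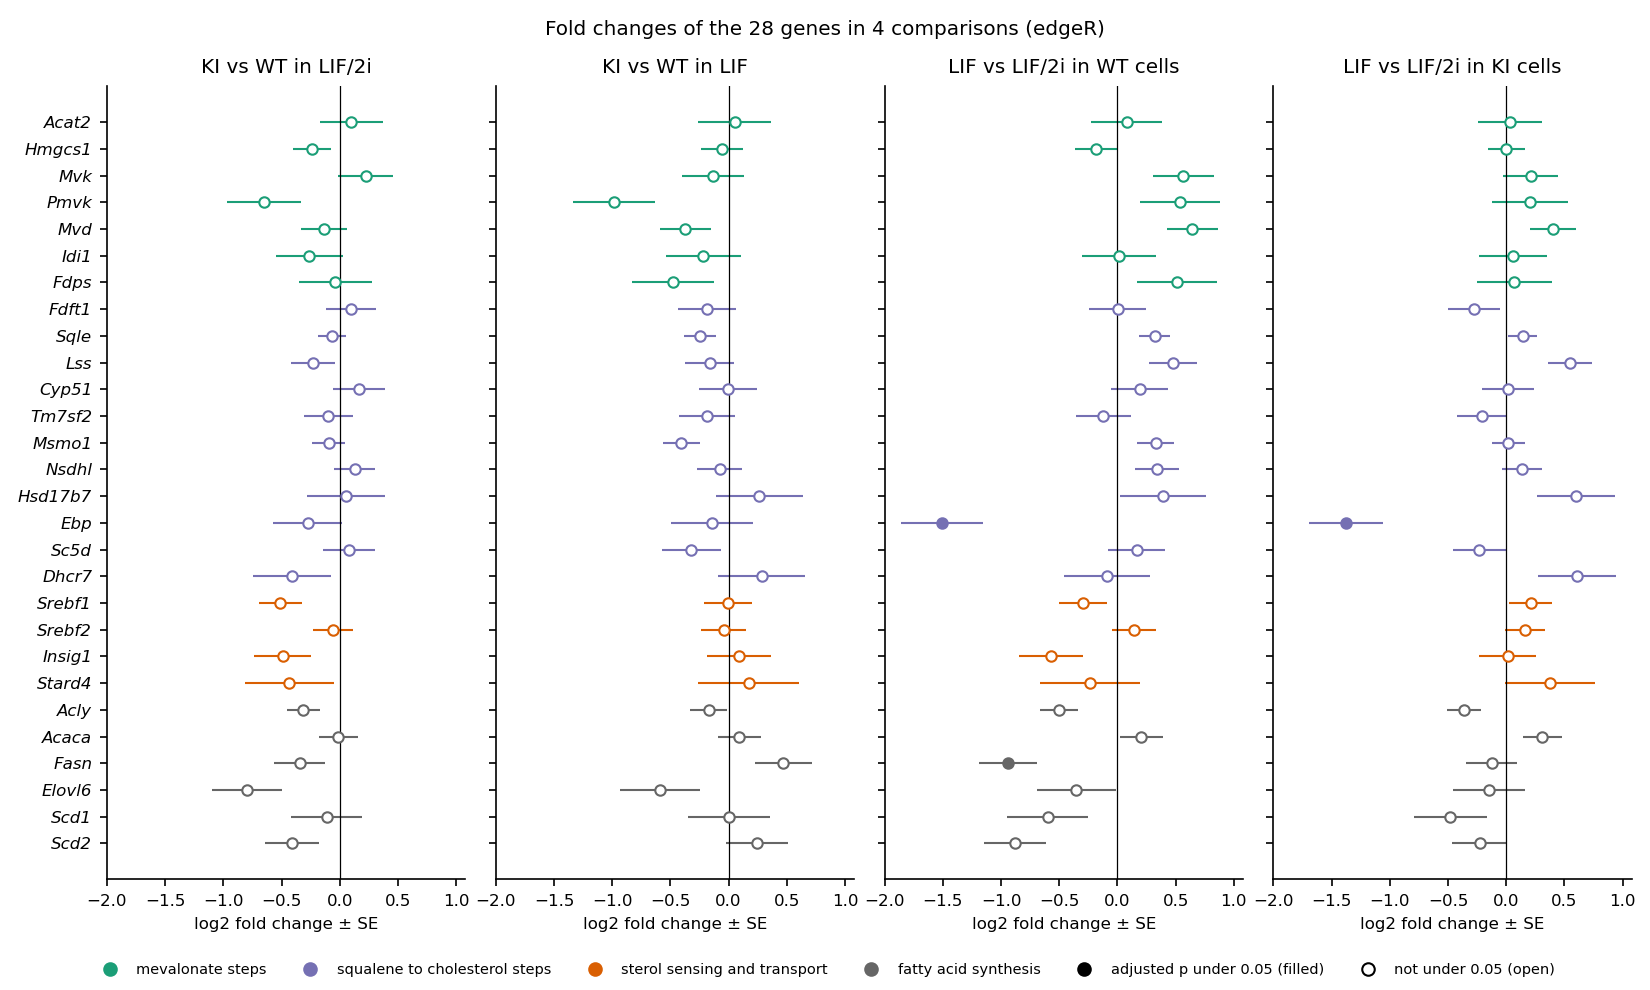
Log2 fold change with its approximate standard error for each of the 28 genes, coloured by role. Panels show KI against WT in LIF/2i and in LIF, and LIF against LIF/2i in WT and in KI cells. Filled points passed an adjusted p under 0.05 by edgeR's quasi-likelihood test. Ebp is filled in both medium panels and Fasn in WT alone, whereas no point is filled in the genotype panels.

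Medium gave the calls among these genes. In WT cells, 2 members fell in LIF against LIF/2i, Ebp and Fasn, and 0 rose, by edgeR's quasi-likelihood test. That is 7.14% of the 28, where 13% of all genes were called in either direction with 6.31% higher and 6.69% lower, so the share of members was not above that of other genes. The median fold change was 0.05 against 0.01 over all genes, with 16 members above 0 and 12 below. Over all genes, 49.4% lay below 0. By edgeR, 8 of the 28 had an unadjusted p under 0.05, as did 27.5% of all genes. The mevalonate steps had a median of 0.51 with 6 of 7 above 0, squalene to cholesterol 0.19 with 8 of 11 above 0, sterol sensing and transport -0.26 with 3 of 4 below 0, and fatty acid synthesis -0.55 with 5 of 6 below 0. Apart from Ebp and Fasn, these are fold changes that did not pass the test.

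Ebp encodes the isomerase that moves the sterol double bond late in cholesterol synthesis. It had 24.0 and 28.4 CPM in WT LIF, against 93.4, 81.6 and 47.4 CPM in WT LIF/2i, and the groups did not overlap. Its level in LIF was 0.352 of that in LIF/2i, a log2 fold change of -1.51 ± 0.35 with adjusted p = 0.0164 by edgeR's quasi-likelihood test. WT LIF/2i replicate 3 was the lowest of its group at 47.4 CPM.

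Fasn had 742 and 935 CPM in WT LIF, against 1759, 1634 and 1433 CPM in WT LIF/2i, also without overlap. The log2 fold change was -0.94 ± 0.25, a level of 0.521 of that in LIF/2i, with adjusted p = 0.0287 by edgeR's quasi-likelihood test. Both calls rest on few samples. Without WT LIF/2i replicate 1 the edgeR adjusted p was 0.0639 for Ebp and 0.0857 for Fasn, and without WT LIF/2i replicate 2 the call of Fasn was lost (0.0624). Leaving out WT LIF replicate 2, or the agreeing WT LIF pair, leaves 1 sample in WT LIF, which is then assumed to vary like the other groups. Without replicate 2 the log2 fold changes were larger, -1.63 for Ebp and -1.12 for Fasn, with edgeR adjusted p = 0.100 and 0.0970. Without the pair they were -1.40 and -0.78, with edgeR adjusted p = 0.124 and 0.207. Over all alternatives the adjusted p ranged from 0.000598 to 0.124 for Ebp and from 0.00241 to 0.207 for Fasn (edgeR, DESeq2 or limma-voom).

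No other member passed the test. Scd2, the next by size, had 98.6 and 140 CPM in WT LIF, against 264, 192 and 202 CPM in WT LIF/2i, without overlap, and its log2 fold change was -0.88 ± 0.27 (edgeR adjusted p = 0.0502). DESeq2 and limma-voom called it, with adjusted p = 0.0161 and 0.0401, within a range of 0.00845 to 0.317 over all alternatives. Acly, which was next by adjusted p, had 660 and 734 CPM in WT LIF, against 1122, 968 and 869 CPM in WT LIF/2i, again without overlap (log2 fold change -0.50 ± 0.16, edgeR adjusted p = 0.0644).

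Mvd, the mevalonate diphosphate decarboxylase, ran opposite to these fatty acid genes. It had 69.5 and 73.8 CPM in WT LIF, against 38.5, 45.6 and 54.1 CPM in WT LIF/2i, without overlap, with a log2 fold change of 0.64 ± 0.22 (edgeR adjusted p = 0.0721). DESeq2 called it at adjusted p = 0.0473, and the adjusted p ranged from 0.0306 to 0.307 over all alternatives. Of the fatty acid and sensing genes, Scd1 had a log2 fold change of -0.60 and Insig1 of -0.57, and neither was called. Mvk had a log2 fold change of 0.57, Pmvk of 0.54, Fdps of 0.51 and Lss, the lanosterol synthase, of 0.48, none of them called. Acat2, the acetoacetyl-CoA thiolase that acts first, lay at 0.08 and Hmgcs1, which acts next, at -0.18.

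In KI cells, 1 member fell in LIF against LIF/2i, Ebp, and 0 rose, by edgeR's quasi-likelihood test. This is 3.57% of the members, with 9.06% of all genes called, 4.05% higher and 5.01% lower. The median was 0.04 against -0.03 over all genes. Of the 28, 19 lay above 0 and 9 below, and over all genes 52.6% lay below 0. By edgeR, 3 members, Ebp, Lss and Acly, had an unadjusted p under 0.05, as did 23.7% of all genes. The mevalonate steps had a median of 0.07 with 7 of 7 above 0, sterol sensing and transport 0.19 with 4 of 4 above 0, squalene to cholesterol 0.02, and fatty acid synthesis -0.19 with 5 of 6 below 0.

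Ebp had 29.1, 20.7 and 21.6 CPM in KI LIF, against 91.5, 47.7 and 45.2 CPM in KI LIF/2i. The groups did not overlap, the level in LIF was 0.385 of that in LIF/2i, and the log2 fold change was -1.38 ± 0.32 with adjusted p = 0.0192 by edgeR's quasi-likelihood test. Without KI LIF replicate 2 the adjusted p was 0.0900, without KI LIF replicate 3 it was 0.0833, and with limma-voom it was 0.0506, within a range of 0.000669 to 0.0900 over all alternatives (edgeR, DESeq2 or limma-voom).

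Lss had 89.3, 117 and 96.9 CPM in KI LIF, against 83.1, 62.4 and 62.3 CPM in KI LIF/2i, without overlap (log2 fold change 0.55 ± 0.19, edgeR adjusted p = 0.100). Same-numbered KI samples of the 2 media deviated together for replicates 1 and 2, whereas pairing of replicate 3 is not shown. A fit of the KI libraries alone with the replicate number as a block called 2 members, Ebp and Lss. Lss was higher at 0.56 with an edgeR adjusted p of 0.0407, the lowest over all alternatives, which reached 0.330. That fit called 2006 genes in all, against 1199 without the block.

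Dhcr7, which reduces 7-dehydrocholesterol to cholesterol, had 80.3, 215 and 137 CPM in KI LIF, against 94.3, 125 and 65.0 CPM in KI LIF/2i. Hsd17b7, the sterol 3-keto reductase, had 14.2, 18.6 and 10.2 CPM in KI LIF, against 7.52, 10.1 and 11.2 CPM in KI LIF/2i. Both pairs of groups overlapped, with log2 fold changes of 0.61 ± 0.33 and 0.60 ± 0.34 (edgeR adjusted p = 0.302 and 0.312). Acly had 532, 671 and 652 CPM in KI LIF, against 803, 888 and 692 CPM in KI LIF/2i, without overlap, and its log2 fold change was -0.36 ± 0.14 (edgeR adjusted p = 0.1505). Fasn, called in WT cells, had a fold change of -0.13 ± 0.22 in KI cells (edgeR adjusted p = 0.791), with 793, 1404 and 1282 CPM in KI LIF, against 1205, 1583 and 1010 CPM in KI LIF/2i.

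**Figure D3:**
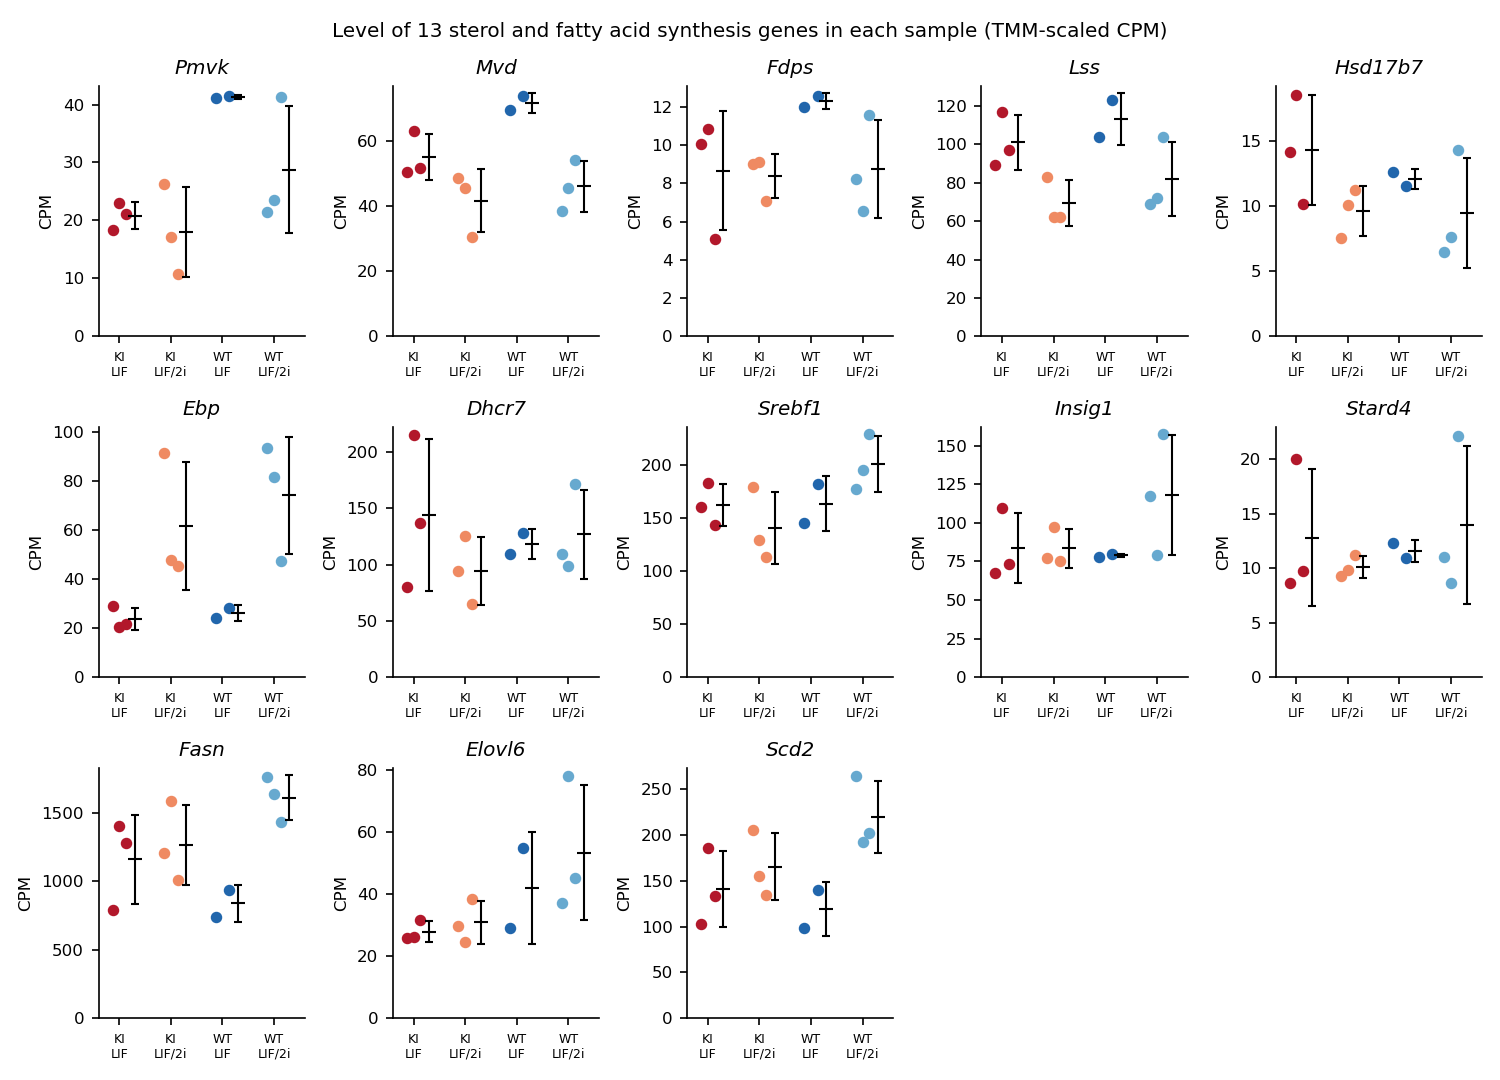
Level of 13 genes in each sample (TMM-scaled CPM, axes from 0), with the mean and SD of each group beside the points, for KI LIF, KI LIF/2i, WT LIF and WT LIF/2i. The left point of WT LIF is the mean of replicates 1 and 3. Ebp is the gene whose LIF samples, 20.7 to 29.1 CPM, all lie under its LIF/2i samples, 45.2 to 93.4 CPM, in both genotypes.

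The difference between the medium effects in KI and in WT cells was tested as an interaction, and 0 members and 0 genes in all (0%) were called by edgeR's quasi-likelihood test. Fasn was the only member with an unadjusted p under 0.05, as were 798 of 13239 genes, and DESeq2 and limma-voom also called 0 members. Its interaction was 0.81 ± 0.33 on the log2 scale (unadjusted p = 0.0288, edgeR adjusted p = 0.818), so the call of Fasn in WT but not in KI cells is not shown to be a difference between them. The next were Dhcr7 at 0.70, Scd2 at 0.65 and Stard4, a cytosolic sterol carrier, at 0.61. All 6 fatty acid genes and all 4 genes of sensing and transport lay above 0, while 5 of 7 mevalonate genes lay below, with none called. Over all genes, 53.5% lay below 0. Stard4 had 8.65, 20.0 and 9.73 CPM in KI LIF, 9.30, 9.84 and 11.2 CPM in KI LIF/2i, 12.3 and 10.9 CPM in WT LIF, and 11.1, 8.66 and 22.2 CPM in WT LIF/2i. In KI LIF and in WT LIF/2i a single library stood well above the others.

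Libraries within a group also differed in the levels of the members. The matching shares over all genes were not computed, so the counts that follow are not shown to be particular to these genes. KI LIF replicate 2 was the highest of its group for 21 of 28 members, including 4 of 4 in sterol sensing and transport and 5 of 6 in fatty acid synthesis. In WT LIF/2i, replicate 3 was the highest for 16 of 28 members and for 4 of 4 in sterol sensing and transport, whose median there was 0.66 log2 units above the mean of the 4 group means. WT LIF replicate 2 was the higher of its pair for 21 of 28 members. Whether the fibroblast markers, also higher in that library, have a part in this was not tested. KI LIF replicate 2, at 4609908 counts, was the deepest library of its group and WT LIF/2i replicate 3, at 3234713, the shallowest of its group. The within-group spread of the sample medians over the 28 members was 0.18 log2 units (pooled SD), larger than the medians of -0.12 and -0.11 in the genotype comparisons.

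**Figure D4:**
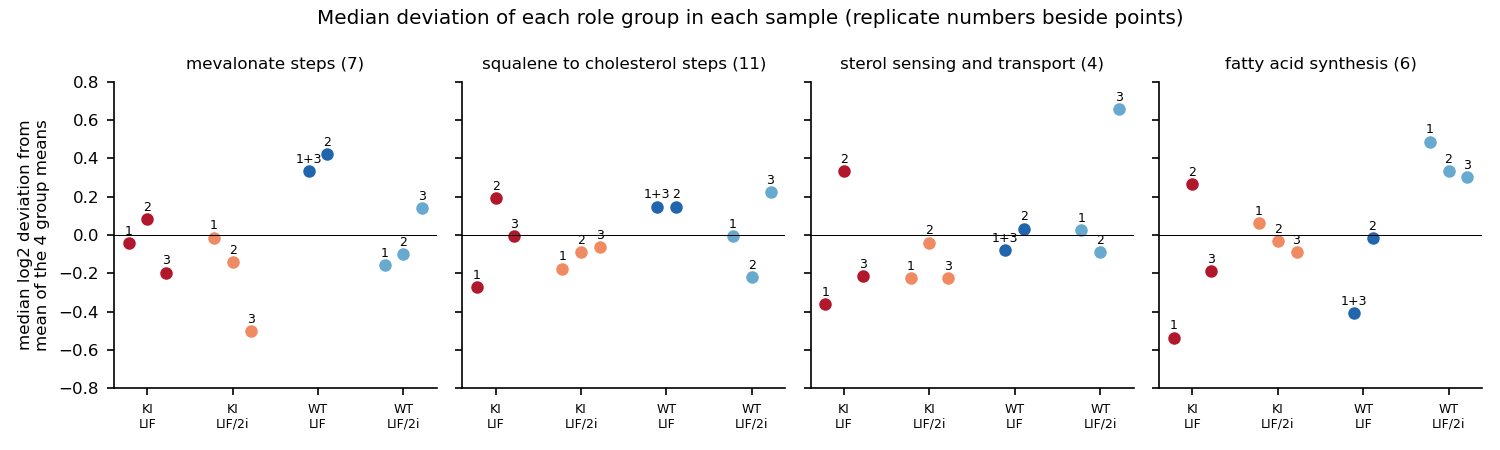
Median log2 deviation of each role group from the mean of the 4 group means, per sample, with replicate numbers beside the points, for KI LIF, KI LIF/2i, WT LIF and WT LIF/2i. Replicate 3 of WT LIF/2i stands at 0.66 in sterol sensing and transport, and the fatty acid genes lie highest in WT LIF/2i, at 0.30 to 0.49.

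Other genes of these pathways were read from lists of genes that are not members. Of 21 further sterol pathway and SREBP machinery genes, all tested, 0 were called in either genotype comparison, and 1 rose and 1 fell in LIF against LIF/2i in WT cells, while 2 rose and 1 fell in KI cells. Among all tested genes, 2.22% were called between genotypes in LIF/2i and 0.144% in LIF. For medium the shares were 6.31% rising and 6.69% falling in WT cells, and 4.05% and 5.01% in KI cells. The gene that fell was Npc2, the lysosomal cholesterol carrier, in both genotypes. It had 89.4 ± 15.5 CPM in KI LIF and 179 ± 6.52 CPM in KI LIF/2i (SD, n = 3 each), and 104 ± 19.6 CPM in WT LIF (n = 2) and 201 ± 44.6 CPM in WT LIF/2i (n = 3), with log2 fold changes of -0.998 in KI and -0.96 in WT cells (edgeR adjusted p = 0.00685 and 0.0119).

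Of 19 further genes of fatty acid synthesis and NADPH supply, 3 fell in LIF against LIF/2i in WT cells and 1 in KI cells, and 0 rose, where 6.69% of all genes were lower in WT cells and 5.01% in KI cells. Acacb, the mitochondrial acetyl-CoA carboxylase, fell in both, with log2 fold changes of -1.89 in KI cells and -2.05 in WT cells (edgeR adjusted p = 0.00227 and 0.00273). It is one of the genes that share sequence with Acaca, whose own fold changes were 0.31 and 0.21. The other 2 in WT cells were Lpin1, a phosphatidate phosphatase, at -1.47, and Me1, the cytosolic malic enzyme that yields NADPH, at -1.37. Between genotypes, where 2.22% of all genes were called in LIF/2i and 0.144% in LIF, 1 of the 19 was called. This was Idh1, the cytosolic isocitrate dehydrogenase that also yields NADPH, which fell in KI cells in LIF/2i. Its level was 162 ± 50.0 CPM in KI LIF/2i and 330 ± 8.76 CPM in WT LIF/2i (SD, n = 3 each), and the log2 fold change was -1.02 ± 0.22 (edgeR adjusted p = 0.0398).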

How the data were processed

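Total RNA of the cleared lysate was sequenced, and the authors deposited 1 table of raw counts per gene, over the coding sequence of 1 transcript per gene per the file headers. Tools listed in the submitters' processing notes, without their roles, are Bowtie 1.3.0, UMI-tools 1.0.1 and cutadapt 3.4. For the genome build, annotation, strand setting and treatment of multiply matching reads, the method is not stated. From these counts, genes passing filterByExpr at a minimum count of 10 (13239) were scaled by TMM and fitted with edgeR 4.0.16 under R 4.3.3 by robust glmQLFit, taking 11 samples and a mean for each group. The design had allowed for merging libraries that agree within sampling noise. Contrasts were tested two-sided with Benjamini-Hochberg adjustment over all genes at 0.05, after the code was tested on simulated data. The ± beside an edgeR log2 fold change is an approximate SE. It is the size of the fold change divided by the square root of the quasi-likelihood F statistic. Levels are TMM-scaled CPM, and coordinates are GENCODE M21 (GRCm38). The members, the role groups and the other lists were chosen with earlier results of these data known. Per-sample values were printed for called members and, where fewer than 4 were called, for those with the largest fold changes until 4 were reached, with a mean of at least 5 CPM; Msmo1, Acly and the genes named by role or as called list members were added after their values were seen. Some genes of the other lists are counted but not reported here by name. Replicate numbers are shared between groups, and the correlations of deviations between same-numbered KI samples across media were 0.507, 0.388 and 0.224 for replicates 1, 2 and 3. KI LIF replicate 3 correlated nearly as well with KI LIF/2i replicate 2, at 0.216. The numbers thus pair KI replicates 1 and 2 as judged from the data, not by any label, and pairing of replicate 3 is not shown. Each other comparison had a same-numbered pair under 0.1. Alternatives were DESeq2 1.42.0, limma-voom (limma 3.58.1), other scalings and filters, 12 separate libraries, only the groups compared, the replicate block and leaving out each library. Leaving out both agreeing WT LIF libraries was added after seeing the data.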

Additional observations from a re-analysis of the deposited data

How the results depend on the processing

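In each comparison, single fold changes were followed under the alternatives for only 4 members, those called or largest in size. None of these changed direction, but large fold changes are the least likely to, and the directions of the other members were not followed. Several uncalled ones moved much with 1 library. In KI against WT in LIF/2i without WT LIF/2i replicate 3, Pmvk was -0.31 and Insig1 -0.24. Without KI LIF replicate 2 the medium effect on Dhcr7 in KI cells was 0.18 and the interaction of Stard4 0.10. The median over the members kept its sign in both genotype comparisons, but medians near 0 did not: for medium in WT cells it fell to -0.000711 without WT LIF replicate 1, in KI cells it was -0.12 without KI LIF replicate 2, and for the interaction it ranged from -0.09 to 0.17. The number of members called stayed at 0 in KI against WT in LIF and in the interaction under every alternative run. In KI against WT in LIF/2i it was 0 in each except leaving out single libraries, where it ranged from 0 to 1, and the 1 was Srebf1 without KI LIF/2i replicate 1. In LIF against LIF/2i in WT cells the 2 calls became 5 with DESeq2, 5 with 12 libraries counted separately, 5 with only the groups compared and 5 with the replicate block over 12 libraries, each time adding Acly, Scd2 and Mvd, and 0 without both agreeing WT LIF libraries. The count was 3, with Scd2 added, under limma-voom, under DESeq2 size factors in the edgeR fit and with no filter on low counts. Leaving out single libraries gave 0 to 4. In KI cells the 1 call became 0 with limma-voom and 2 with the replicate block on the KI libraries alone, and leaving out single libraries gave 0 to 1. The replicate block over 12 libraries changed no other count of members, and outside KI replicates 1 and 2 the numbers were not shown to pair samples. The causes were not tested. Over all genes, the counts of 294, 19, 1722, 1199 and 0 calls (KI against WT in LIF/2i and in LIF, medium in WT and in KI cells, interaction) moved more than 1.5 times under several settings. DESeq2 gave 911, 206 and 23 in the first, the second and the interaction, 12 separate libraries gave 522, 142, 2737 and 1 in the first 3 and the interaction, and the replicate block gave 566, 174, 2856 and 2 in the same. Only the groups compared gave 65, 31 and 747 in the first, the second and the medium comparison in KI cells. In KI against WT in LIF, limma-voom gave 11 and no filter 32. Without both agreeing WT LIF libraries the counts were 2 in KI against WT in LIF, 766 for medium in WT cells and 1 for the interaction. Leaving out single libraries gave 64 to 1001, 1 to 22, 399 to 1760, 492 to 1072 and 0 to 4. Library totals alone moved the split of calls for medium to 959 higher and 715 lower in WT cells, against 836 and 886, and to 591 higher and 540 lower in KI cells, against 536 and 663. Depth limits the KI LIF group most, with 2307219 counts in its shallowest library.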

Other observations

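Of 12 genes of fatty acid oxidation, the pathway that breaks down what the synthesis genes make, all tested, 1 was called between genotypes in each medium, where 2.22% of all genes were called in LIF/2i and 0.144% in LIF. Decr1, the mitochondrial dienoyl-CoA reductase, was higher in KI cells in LIF/2i, at 25.6 ± 5.45 CPM in KI LIF/2i and 10.1 ± 2.34 CPM in WT LIF/2i (SD, n = 3 each), and the log2 fold change was 1.36 ± 0.23 (edgeR adjusted p = 0.0133). Acaa2, the mitochondrial 3-ketoacyl-CoA thiolase, was lower in KI cells in LIF, at 31.9 ± 3.14 CPM in KI LIF (SD, n = 3) and 93.5 ± 11.5 CPM in WT LIF (n = 2), a log2 fold change of -1.54 ± 0.22 (edgeR adjusted p = 0.0221). Cpt1a, the carnitine palmitoyltransferase that admits fatty acids to mitochondria, fell in LIF against LIF/2i in both genotypes, by 1.23 on the log2 scale in KI cells and by 1.27 in WT cells (edgeR adjusted p = 0.00251 and 0.00370). Decr1 rose in LIF in both, by 0.79 in KI cells and 1.87 in WT cells (edgeR adjusted p = 0.0430 and 0.00108). In KI cells Acaa2 and Slc25a20, the carnitine carrier, also fell, by 0.75 and by 0.60 (edgeR adjusted p = 0.0411 and 0.0377). For medium, 1 of the 12 thus rose and 1 fell in WT cells, and 1 rose and 3 fell in KI cells. Over all genes 6.31% rose and 6.69% fell in WT cells, and 4.05% rose and 5.01% fell in KI cells.

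Among 10 tested genes of LXR signalling and sterol efflux, 0 were called between genotypes, while 2 rose in LIF against LIF/2i in KI cells, and 1 rose and 1 fell in WT cells. Over all genes, 2.22% were called between genotypes in LIF/2i and 0.144% in LIF. For LIF against LIF/2i, 4.05% were higher in KI cells, and 6.31% were higher and 6.69% lower in WT cells. Soat1, which esterifies cholesterol for storage, was 71.3 ± 21.5 CPM in KI LIF and 25.3 ± 9.90 CPM in KI LIF/2i (SD, n = 3 each), and 64.8 ± 5.86 CPM in WT LIF (n = 2) and 24.1 ± 10.5 CPM in WT LIF/2i (n = 3). Its log2 fold changes were 1.503 in KI and 1.46 in WT cells (edgeR adjusted p = 0.0197 and 0.0258). Abcg1, a sterol exporter, rose in KI cells by 1.17 (edgeR adjusted p = 0.0459), and Nceh1, a cholesteryl ester hydrolase, fell in WT cells by 1.27 (edgeR adjusted p = 0.0101). Neither difference between genotypes was called by the interaction test.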
